A study of Mus musculus with 116 samples.

Results

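The Igkv5 family is a set of V gene segments of the mouse immunoglobulin kappa light chain locus. Its 5 members here, Igkv5-37, Igkv5-39, Igkv5-43, Igkv5-45 and Igkv5-48, are 5 of the 162 Igkv segments in the RefSeq table of GRCm38 (mm10). They were read in 42 junction lists, 3 replicates of each of 14 groups, made without any added nuclease. A row, which is 1 sequencing read, was assigned to a member when its junction on chromosome 6 lay within 100 bp of that segment. By this rule 45212 of 1374899 rows belonged to the family.

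The cells were v-Abl pro-B cells, mouse B cell precursors transformed by the v-Abl kinase, and every group carried the Emu-Bcl2 transgene, in which the immunoglobulin heavy chain enhancer drives the survival gene Bcl2. A 96 h treatment with 3 µM STI-571, which inhibits that kinase, arrested all groups in G1. The groups were WT (that is, Emu-Bcl2 with no further change) clones A and B; Ku70-/- clones A1 and B1; Lig4-/- clones A1 (2 sets, of which the second is called A1 (b) here), B1 and C; Lig4-/-Ku70-/- clones A1_1 and C1; the latter clones with Ku70 added back (+Ku70); and Lig4-/- clones A1 and C with Lig4 added back (+Lig4). Each group is 1 clone, so a genotype rests on at most 3 clones, and clones that share a first letter were treated as a lineage. The labels do not say whether replicates were separate cultures, so p-values measure only the spread between these libraries. The labels give no strain, and the genotypes rest on the labels.

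In developing B cells the RAG recombinase cuts beside a V and a J segment, at recombination signal sequences made of a heptamer, a spacer and a nonamer. Each cut leaves a coding end on the segment and a signal end on the signal sequence. Coding ends are usually joined by classical non-homologous end joining, in which the Ku70 and Ku80 heterodimer binds the broken ends and ligase IV (Lig4) seals them; joining without these factors is called alternative end joining and often uses short stretches of shared bases (microhomology). A V segment that lies in the opposite direction to the J segments is joined by inversion of the DNA between them.

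In these libraries the bait, the sequence next to the sequencing primer, was the coding end of Jk1, and the prey was whatever that end had joined. The members lie 759 to 996 kb from Jk1 and span 237 kb of chromosome 6: Igkv5-48 at chr6:69726573-69727125, Igkv5-45 at chr6:69775750-69776306, Igkv5-43 at chr6:69823355-69823911, Igkv5-39 at chr6:69900424-69900977 and Igkv5-37 at chr6:69963312-69963861. In WT cells nearly all of their rows ran in the direction of joining by inversion, with the coding end at the lower coordinate. The RefSeq table gives no strand, so this direction was taken from the WT rows, and the low share of the opposite direction in WT cells is partly set by that choice. Between the outermost members lie 8 other Igkv segments, 4 of them functional.

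The sequences that the RAG recombinase sees at the members are shown because the joints described later start from these ends. Each is the minus strand of mm10, read as the consensus of the junction reads, with the last 40 coding bases and the spacer in lower case and the heptamer and the nonamer in capitals.
Igkv5-37, chr6:69963284-69963351: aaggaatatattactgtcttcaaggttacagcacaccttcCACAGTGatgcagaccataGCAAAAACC
Igkv5-39, chr6:69900396-69900463: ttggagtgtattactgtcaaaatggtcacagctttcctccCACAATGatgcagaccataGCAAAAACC
Igkv5-43, chr6:69823327-69823394: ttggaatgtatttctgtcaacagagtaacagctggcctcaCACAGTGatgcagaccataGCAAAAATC
Igkv5-45, chr6:69775722-69775789: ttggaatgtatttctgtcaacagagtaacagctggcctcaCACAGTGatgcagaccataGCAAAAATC
Igkv5-48, chr6:69726545-69726612: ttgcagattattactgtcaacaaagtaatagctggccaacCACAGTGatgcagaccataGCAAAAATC
The 12-bp spacer was the same in all 5 members. Igkv5-39 had the heptamer CACAATG and the other 4 had CACAGTG. Igkv5-37 and Igkv5-39 shared the nonamer GCAAAAACC, and Igkv5-43, Igkv5-45 and Igkv5-48 shared GCAAAAATC. The Jk1 coding end that they join begins as follows, on the plus strand, with its first 7 bases in capitals.
Igkj1, chr6:70722562-70722591: GTGGACGttcggtggaggcaccaagctgga

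Igkv5-43 and Igkv5-45 are near copies of each other. They were identical over 60 bases on the signal side and differed at 3 of 250 coding bases counted from the coding end, the first of them at 193 bp. The other pairs were 80.0% to 91.6% identical over the same 250 coding bases. A read that stops short of 193 bp into the segment carries the same bases for both. Of the coding-join rows in WT cells, 66.7% of those of Igkv5-39, 64.5% of Igkv5-48 and 62.2% of Igkv5-37 stopped short of that distance, against 0.017% of Igkv5-43 and 0.015% of Igkv5-45. In Ku70-/- cells it was 59.4% of those of Igkv5-39, 55.0% of Igkv5-48 and 55.8% of Igkv5-37. On the signal side Igkv5-43 and Igkv5-45 first differed at 136 bp, and no opposite-orientation row of either stopped short of it, while 55.2% of those of Igkv5-39 did. The lists thus hold almost no short alignments on Igkv5-43 and Igkv5-45, and rows of these 2 segments are not on the same footing as rows of the other 3. The members' shares of family rows and their opposite-orientation shares are therefore also given over rows whose prey alignment passed 220 bp from the coding end, a limit chosen after the lists were seen. The other values by member, and the usage of the family, are over all rows only.

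**Figure D1:**
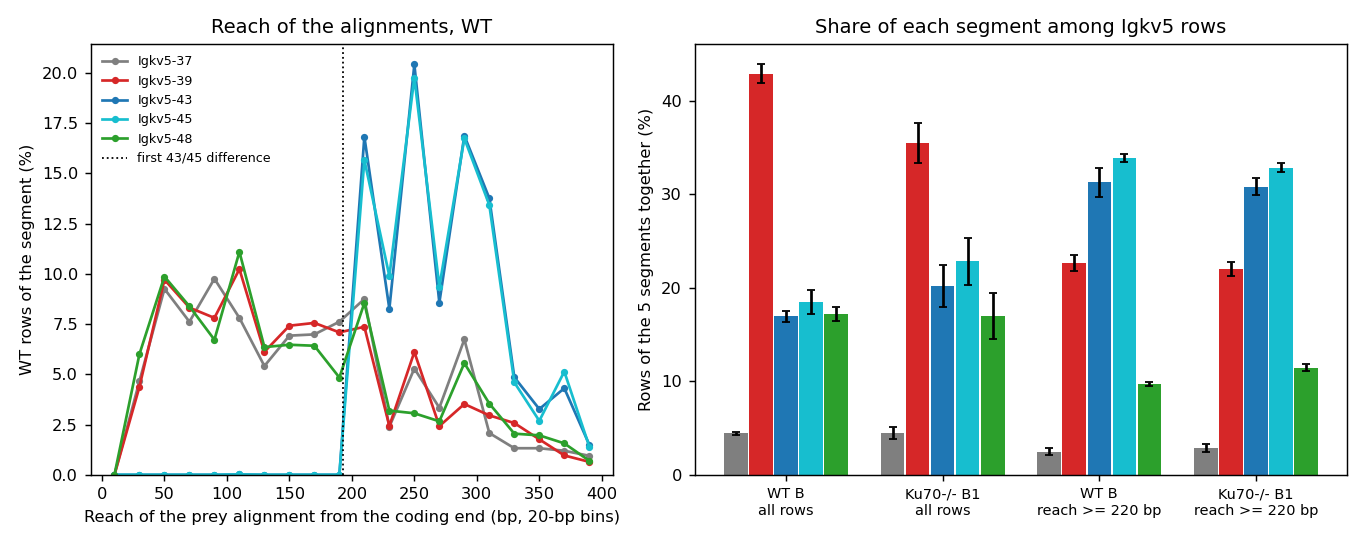
Left, distance that the prey alignment reaches into each segment (bp, 20-bp bins, x axis) against the percent of that segment's coding-join rows in the 6 WT libraries (y axis); the dotted line marks the first base at which Igkv5-43 and Igkv5-45 differ, and both curves lie near 0 to its left. Right, each segment's percent of all Igkv5 rows in WT B and Ku70-/- B1, over all rows and over rows reaching 220 bp, with colours as on the left (bars, mean; error bars, SD; n = 3); in WT B Igkv5-39 held 42.9% of all rows and 22.6% of the rows reaching 220 bp.

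The family's share of library rows was slightly higher in Ku70-/- A1 than in WT A, with overlapping libraries, and lower in Ku70-/- B1 than in WT B. Its percent of library rows was 2.29, 1.70 and 2.21 in WT A and 3.54, 3.44 and 3.61 in WT B. It was 2.11, 2.43 and 2.51 in Ku70-/- A1 and 3.00, 3.24 and 3.33 in Ku70-/- B1. The WT A and Ku70-/- A1 libraries overlapped, and each Ku70-/- B1 library lay below each WT B library. The mean difference over both lineages, which averages opposite signs, was for Ku70-/- minus WT -0.03 percentage points (exact stratified permutation test, two-sided, p = 0.885; Benjamini-Hochberg adjusted over 12 tests of the family, 1.00). It was 0.28 points in lineage A and -0.34 in lineage B. Counting only rows within 20 bp of a segment gave -0.40 points (exact p = 0.03), a window that leaves out joints far into the signal side. All lineage B libraries came from 1 sequencing run, and in the 2 runs that WT A and Ku70-/- A1 share the differences were 0.29 and 0.73 points. Family usage sums segments with and without short alignments, and reach differed between groups. Rows reaching 220 bp made 65.7% of Igkv5-43 rows in WT A, 84.8% in WT B, 47.9% in Ku70-/- A1 and 76.0% in Ku70-/- B1. Family usage over such rows was not tested.

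Fewer family rows were recovered from Ku70-/- cells. The labels give a number of raw reads used for normalisation, which was taken here as the reads entered per library. On that basis the family gave 625 ± 88.4 rows per 100000 input reads in WT A and 72.4 ± 29.8 in Ku70-/- A1, and 1746 ± 83.1 in WT B and 304 ± 46.3 in Ku70-/- B1 (SD, n = 3 each), so that no library of a Ku70-/- clone reached its WT clone. The whole lists were shorter as well, with 47130 to 53074 rows in WT A and 3075 to 6383 in Ku70-/- A1. Rows repeated junctions to unlike degrees. Distinct junctions made 27.2% ± 13.5 of family rows in WT A and 41.7% ± 11.4 in Ku70-/- A1. They made 10.6% ± 0.18 in WT B and 63.3% ± 2.06 in Ku70-/- B1. In distinct junctions the whole lists overlapped in lineage B, with 27742 to 28342 in WT B and 27337 to 31504 in Ku70-/- B1. They held 5085 to 12893 in WT A and 1219 to 3609 in Ku70-/- A1. These values are a description, with no test. Library rows ranged from 3 to 305846 over the 42 lists.

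Lig4-/- cells gave almost no Igkv5 joints. Of 490 rows in the 12 Lig4-/- libraries, 18 fell on the family, or 3.67% (exact 95% interval 2.19 to 5.74, covering counting error only), and they came from 3 distinct junctions in 3 libraries. These were 14 copies of 1 Igkv5-45 joint in replicate 3 of clone C, 3 copies of 1 Igkv5-48 joint in replicate 3 of clone A1, and 1 opposite-orientation row of Igkv5-37 in replicate 2 of clone B1. The Igkv5-48 joint, which lost 3 bp of V and none of Jk1, was also present in 196 rows of 10 of the libraries of WT, Ku70-/-, Lig4-/-Ku70-/- and +Lig4 cells, 6 of those rows in the same sequencing run. Whether it came from the Lig4-/- cells was not tested. In a Lig4-/- library with 0 family rows the list could have held a share of up to 4.62% to 100.0% unseen, the value that 3 counts would give. The 14 copies made 30.4% of the 46 rows of their list.

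Family usage in Lig4-/- cells, on so few rows, hung on single libraries. The mean difference Lig4-/- minus WT was -1.82 percentage points (exact stratified permutation test, p = 0.08; adjusted 0.137), and it was -2.49 with the A1 (b) set in place of A1 (exact p = 0.005) and -2.49 without replicate 3 of A1. For Lig4-/-Ku70-/- minus Lig4-/- it was -2.19 points (exact p = 1.00; adjusted 1.00), which became 2.88 without replicate 3 of Lig4-/- C (exact p = 0.005). For +Lig4 minus Lig4-/- it was -2.43 points (exact p = 0.985; adjusted 1.00), which became 2.64 without that library (exact p = 0.02). The comparisons share the Lig4-/- and Lig4-/-Ku70-/- libraries.

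More Igkv5 joints were recovered from Lig4-/-Ku70-/- cells than from Lig4-/- cells. Lig4-/-Ku70-/- A1_1 had 53, 75 and 144 family rows and Lig4-/-Ku70-/- C1 had 147, 124 and 246, against 0 to 14 in any Lig4-/- library. As a percent of library rows this was 2.84, 2.19 and 3.44 in A1_1 and 3.30, 2.11 and 3.40 in C1. Per 100000 input reads it was 54.2 ± 28.4 and 45.7 ± 17.2 rows (SD, n = 3 each). With Ku70 added back the family had 0, 0 and 2 rows in A1_1 and 5, 15 and 23 rows in C1, in all 45 rows from 11 distinct junctions. The whole lists were shorter as well, with 46 to 75 rows in +Ku70 A1_1 and 436 to 612 in +Ku70 C1. They held 1867 to 4188 rows in A1_1, 4457 to 7225 in C1 and 3 to 74 in Lig4-/- libraries. Mean family usage was 1.11% in +Ku70 A1_1 and 2.82% in A1_1, and 2.50% in +Ku70 C1 and 2.94% in C1. Usage in percent, +Ku70 minus Lig4-/-Ku70-/-, differed by -1.07 points (exact stratified permutation test, p = 0.19; adjusted 0.253), and by -1.40 over distinct junctions (exact p = 0.035). The shape of the joints was not tested in +Ku70 cells because several libraries held fewer than 10 family rows.

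With Lig4 added back, Lig4-/- cells used the family at 3.19%, 3.35% and 3.12% of rows in clone A1 and at 3.61%, 3.20% and 3.41% in clone C. Usage in Lig4-/-Ku70-/- cells was 0.43 points lower than in +Lig4 cells (exact stratified permutation test, p = 0.15; adjusted 0.225), with overlapping libraries in both lineages. The difference was -1.30 points over distinct junctions and -0.91 within 20 bp (exact p = 0.005 for each), and -0.59 without replicate 3 of A1_1 (exact p = 0.02). The +Lig4 libraries share no sequencing run with the Lig4-/-Ku70-/- libraries, and here the run and the genotype cannot be told apart.

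Within the family the members were used unequally. Igkv5-39 had the most rows in 17 of the 24 libraries with over 1000 rows, and Igkv5-37 the fewest in 21 of 24. In WT B, Igkv5-39 took 1.55%, 1.49% and 1.51% of library rows and in WT A 0.57%, 0.60% and 0.85%. Igkv5-48 took 0.608% ± 0.019 in WT B and 0.416% ± 0.083 in WT A, Igkv5-45 0.653% ± 0.056 and 0.468% ± 0.113, and Igkv5-43 0.598% ± 0.035 and 0.384% ± 0.117 (SD, n = 3 each). Igkv5-37 took 0.157% ± 0.005 in WT B and 0.126% ± 0.009 in WT A, below every library of the other 4 members in both clones. Igkv5-43, Igkv5-45 and Igkv5-48 lay within 0.56% to 0.72% of rows in WT B.

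The place of Igkv5-39 depended on the reach of the alignments. Over all rows it had more rows than Igkv5-45 in 19 of 24 libraries, and over rows reaching 220 bp in 0 of 24. In WT B its share of the family's rows went from 42.9% ± 0.98 to 22.6% ± 0.88, while that of Igkv5-45 went from 18.5% ± 1.30 to 33.9% ± 0.42 and that of Igkv5-43 from 16.9% ± 0.59 to 31.3% ± 1.54 (SD, n = 3). Igkv5-45 came first in 20 of 24 libraries over rows reaching 220 bp, and Igkv5-37 last in 20. The order of the near copies relative to Igkv5-39 and Igkv5-48 is thus not settled by the full lists. The low place of Igkv5-37 held in most libraries on both counts, but not over rows reaching 220 bp in Lig4-/-Ku70-/- C1. There its share was 17.2% ± 15.1, above Igkv5-39 (11.1% ± 9.63) and Igkv5-48 (14.4% ± 7.74) and below Igkv5-43 and Igkv5-45 (SD, n = 3).

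**Figure D2:**
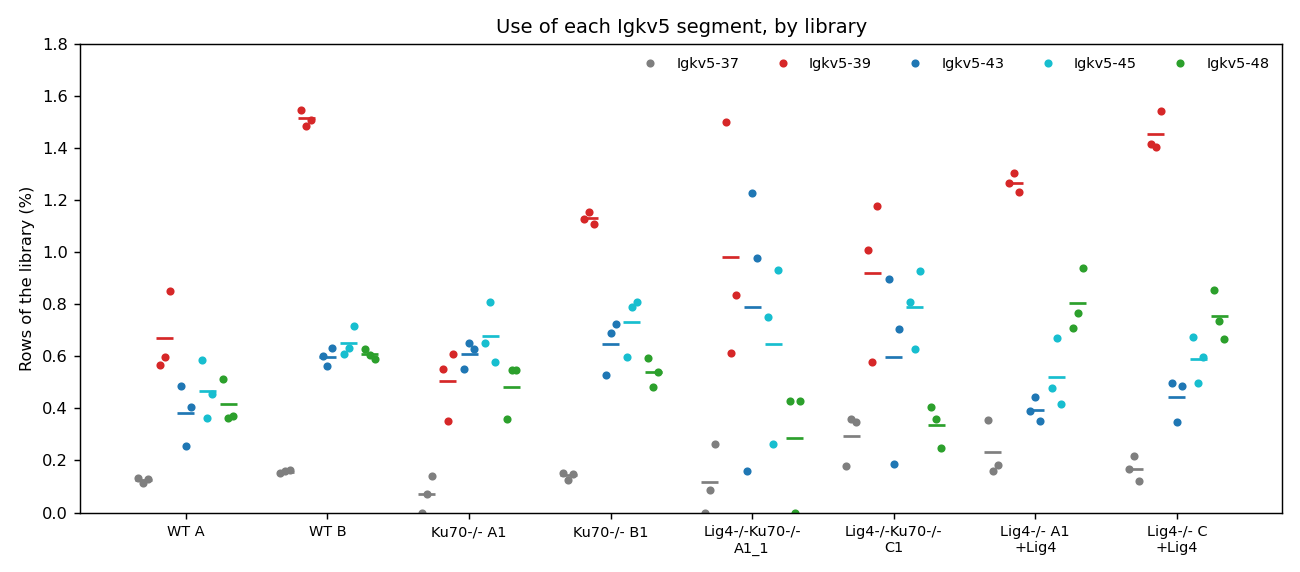
Percent of library rows (y axis) on each Igkv5 segment in the 8 groups whose libraries hold over 1000 rows (x axis); points are the 3 replicates and the short lines their means. Igkv5-39 lies highest in WT B, Igkv5-37 lowest in both WT clones, and the replicates of Lig4-/-Ku70-/- cells scatter most.

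No member passed the test for a change of usage between genotypes. By limma on log2 of rows plus 0.5 per 100 library rows, over all Igkv segments and adjusted over all of them, 0 of 5 members differed between Ku70-/- and WT, where 30.2% of the 126 segments tested did (38 segments, of which 20 higher, or 15.9% of those tested, and 18 lower, or 14.3%). At an unadjusted p under 0.05 there were 3 of 5 members, beside 52 of all 126 segments. Igkv5-43 had the highest change, a log2 difference of 0.42 ± 0.19 (SE; limma adjusted p = 0.119), with means of 0.61% in Ku70-/- A1 and 0.38% in WT A, and 0.65% in Ku70-/- B1 and 0.60% in WT B. Igkv5-45 stood at 0.36 ± 0.17 (limma adjusted p = 0.12). Of the family's rows Igkv5-43 held 16.9% in WT B and 20.2% in Ku70-/- B1, but 31.3% and 30.8% over rows reaching 220 bp. Igkv5-45 held 18.5% and 22.9% there, but 33.9% and 32.9% at that reach. In WT A and Ku70-/- A1 Igkv5-43 held 18.3% and 26.0%, and 28.2% and 26.4% at that reach. Igkv5-45 held 22.5% and 29.1% in these 2 groups, and 45.3% and 50.6% at that reach. Igkv5-39 stood at -0.41 ± 0.16 (limma adjusted p = 0.0712): it took 1.13%, 1.15% and 1.11% of rows in Ku70-/- B1, below all 3 WT B libraries, and 0.55%, 0.35% and 0.61% in Ku70-/- A1, which overlapped WT A. Of the family's rows it held 42.9% in WT B and 35.5% in Ku70-/- B1, but 22.6% and 22.0% over rows reaching 220 bp. In WT A and Ku70-/- A1 it held 32.8% and 21.7%, and 15.1% and 4.58% at that reach, on 9 such rows in Ku70-/- A1. Usage at that reach was not tested. Igkv5-37 stood at -0.64 ± 0.45, which became -0.17 without replicate 1 of Ku70-/- A1, a library with 0 rows of it, and Igkv5-48 at 0.03 ± 0.16. The median log2 difference of the 5 members was 0.03 and that of all segments -0.01. Leaving out replicate 3 of Ku70-/- A1 brought Igkv5-39 to -0.48 (limma adjusted p = 0.0477), and counting distinct junctions brought Igkv5-37 to -0.99 (limma adjusted p = 0.0396).

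Between Lig4-/-Ku70-/- and +Lig4 cells 0 of 5 members were called by limma, where 36.8% of 114 segments were (42 segments, of which 14 higher, or 12.3%, and 28 lower, or 24.6%); 2 of 5 members had an unadjusted p under 0.05, beside 57 of all 114 segments. Igkv5-48 took 0.43%, 0.00% and 0.43% of rows in A1_1 and 0.40%, 0.36% and 0.25% in C1. It took 0.71%, 0.77% and 0.94% in +Lig4 A1 and 0.86%, 0.74% and 0.67% in +Lig4 C. The libraries of the 2 genotypes did not overlap, and the log2 difference was -1.82 ± 0.75 (SE; limma adjusted p = 0.0746). It was -1.01 (limma adjusted p = 0.00177) without replicate 2 of A1_1, the library with 0 rows of this segment. Of the family's rows Igkv5-48 held 25.1% in +Lig4 A1 and 9.20% in A1_1, and 22.1% in +Lig4 C and 12.2% in C1. Over rows reaching 220 bp it held 11.7% and 13.0%, and 14.6% and 14.4%, in the same order. Igkv5-39 stood at -0.58 ± 0.24 (limma adjusted p = 0.0749), and at -0.75 without replicate 1 of A1_1 (limma adjusted p = 0.0122). Igkv5-45 stood at 0.31, and at 0.56 without replicate 2 of A1_1 (limma adjusted p = 0.037). Igkv5-43 stood at 0.41, and between 0.16 without replicate 2 of A1_1 and 0.76 without replicate 1. Igkv5-37 stood at -0.24, and at 0.27 without replicate 1 of A1_1. The median of the members was -0.24 and that of all segments -0.30. Of the 8 other segments between the outermost members, 5 had enough rows to be tested and 0 were called in either comparison, with log2 differences of -0.14 to 0.40 and of -0.36 to 0.46; 0 and 1 of them had an unadjusted p under 0.05.

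The direction of joining changed with genotype. A coding joint between Jk1 and a member keeps the V coding sequence, whereas a row of the opposite orientation runs out of the joint through the signal sequence, the arrangement known as a hybrid joint when it holds a signal end. Of the family's rows, 0.19%, 0.00% and 0.51% were of the opposite orientation in WT A, and 0.48%, 0.62% and 0.52% in WT B. In Ku70-/- A1 they made 33.8%, 35.5% and 29.4%, and in Ku70-/- B1 39%, 34.2% and 38.8%. The genotypes did not overlap in either lineage, and the mean difference was 34.7 percentage points (exact stratified permutation test, two-sided, p = 0.005, the smallest this design can give; adjusted over the 12 tests, 0.01). In the runs that WT A and Ku70-/- A1 share the differences were 28.9 and 35.5 points.

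Lig4-/-Ku70-/- cells had opposite-orientation shares of 45.3%, 42.7% and 45.1% in A1_1 and 41.5%, 46.0% and 24.8% in C1. In +Lig4 cells they were 4.43%, 3.67% and 4.21% in clone A1 and 0.71%, 0.60% and 0.57% in clone C. The difference was 38.5 points (exact stratified permutation test, p = 0.005; adjusted 0.01), with no overlap in either lineage. The 3 libraries of +Lig4 A1 lay above all WT and all +Lig4 C libraries. Over rows reaching 220 bp the differences were 33.9 points for Ku70-/- minus WT and 38.4 for Lig4-/-Ku70-/- minus +Lig4 (exact p = 0.005 for each).

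Over pooled rows, most of them from clone B1 on the Ku70-/- side, all 5 members had a higher opposite-orientation share in Ku70-/- cells. In the 6 Ku70-/- libraries together 36.3% of the rows of Igkv5-37, 30.3% of Igkv5-39, 44.2% of Igkv5-43, 43.3% of Igkv5-45 and 32.9% of Igkv5-48 were of the opposite orientation. In the 6 WT libraries these shares were 0.31%, 0.41%, 0.61%, 0.78% and 0.43%. In single Ku70-/- A1 libraries, with few rows, the share was 0.00% for Igkv5-48 in replicate 1 (11 rows) and for Igkv5-37 in replicate 2 (4 rows), and replicate 1 had no row of Igkv5-37. In Ku70-/- B1 the near copies were highest: Igkv5-43 had 47.7%, 41.1% and 44.3% and Igkv5-45 had 48.2%, 40.5% and 45%, above Igkv5-39 with 32.5%, 27.7% and 32.3% in every library. Over rows reaching 220 bp, where both orientations are held to the same length, the means in Ku70-/- B1 were 34.6% ± 3.5 for Igkv5-43, 31.8% ± 3.52 for Igkv5-45, 28% ± 4.66 for Igkv5-39, 31.9% ± 1.65 for Igkv5-48 and 30.7% ± 16.8 for Igkv5-37 (SD, n = 3), and the ranges of mean ± SD overlapped between all pairs of members. By library, Igkv5-43 still lay above Igkv5-39 in all 3, with 37.0% against 33.3%, 30.6% against 25.3% and 36.1% against 25.2%. Igkv5-45 did not in replicate 1, with 32.5% against 33.3%. In replicates 2 and 3 of Ku70-/- A1, with 2 and 7 such Igkv5-39 rows, Igkv5-43 lay below it, with 11.8% against 50.0% and 44.0% against 71.4%. Lig4-/-Ku70-/- cells had another order over all pooled rows. Igkv5-37 had 54.4%, Igkv5-43 47.3%, Igkv5-45 37.6%, Igkv5-39 31.5% and Igkv5-48 24.1%.

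**Figure D3:**
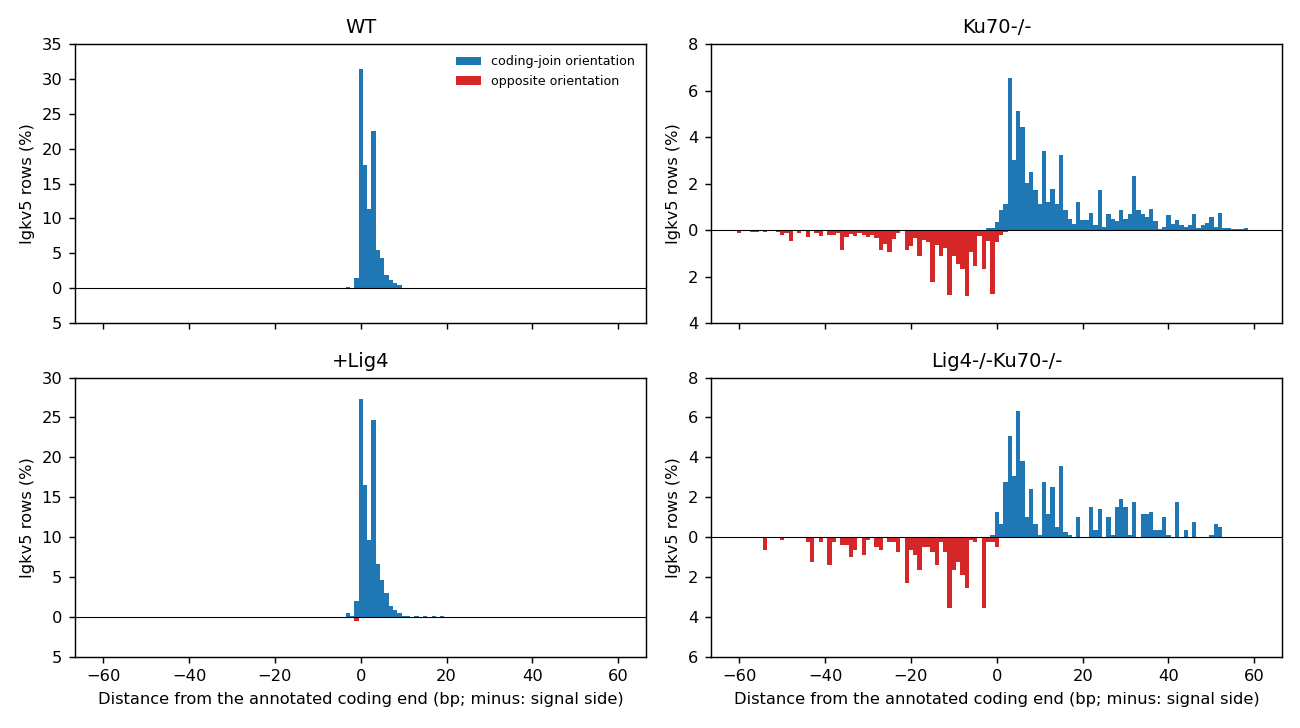
Position of the junction relative to the annotated coding end (bp, x axis; minus is the signal side) against the percent of Igkv5 rows (y axis), pooled over 6 libraries per genotype; rows in the coding-join orientation are drawn upwards in blue and rows in the opposite orientation downwards in red, and the y scales differ between panels. WT and +Lig4 rows pile up within a few bp of the coding end, while Ku70-/- and Lig4-/-Ku70-/- rows spread to both sides.

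Most opposite-orientation joints lay on the signal side, away from its edge in cells without Ku70. In Ku70-/- B1 81.0% ± 3.58 of them lay within the 28 bases of the signal sequence and 7.76% ± 0.97 exactly at its edge, and the median distance from the edge was 10.3 ± 0.58 bp. In Ku70-/- A1 55.7% ± 3.41 lay within the signal sequence, with a median distance of 22.3 ± 3.06 bp. In Lig4-/-Ku70-/- cells these shares were 56.9% ± 20.3 in A1_1 and 79.5% ± 9.67 in C1 (SD, n = 3 each). Of the 49 to 63 such rows in each WT B library, 72.0% ± 2.61 lay within the signal sequence and 33.3% ± 5.86 exactly at its edge, and the others lay on the coding side. One opposite-orientation joint of cells without Ku70 recurred in 4 libraries of Ku70-/- B1 and Lig4-/-Ku70-/- C1, with 17 rows and 0 WT rows. It joined the last base of the Igkv5-39 heptamer to Jk1 less 5 bp, and is printed in the direction of Jk1 with the shared base in capitals.
Igkv5-39, opposite orientation: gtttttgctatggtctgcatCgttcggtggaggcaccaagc
The bases before the capital are the nonamer, less its outermost base, and the spacer of Igkv5-39, read on the other strand.

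The coding ends of the members were processed little where both Ku70 and Lig4 were present. The mean loss at the V end was 1.94, 2.13 and 2.28 bp in WT A, and 1.97, 1.94 and 1.92 bp in WT B. In Ku70-/- cells it was 25.2, 28.1 and 25.4 bp in A1 and 16.3, 17.1 and 16.1 bp in B1. The mean difference was 19.3 bp (exact stratified permutation test, p = 0.005; adjusted 0.01), with no overlap in either lineage. Losses of at least 10 bp were found in 1.19% ± 0.665 of WT A joints, 0.655% ± 0.048 of WT B joints, 73.4% ± 5.21 of Ku70-/- A1 joints and 53.9% ± 0.87 of Ku70-/- B1 joints (SD, n = 3). Jk1 was trimmed alongside, by 1.5 ± 0.15 and 1.40 ± 0.02 bp in the WT clones and by 32.2 ± 4.62 and 16.8 ± 0.51 bp in Ku70-/- A1 and B1.

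Lig4-/-Ku70-/- cells lost 14.4, 12.2 and 21.3 bp of the V end in A1_1 and 19.7, 25.1 and 15.0 bp in C1. In +Lig4 cells the loss was 2.24, 2.35 and 2.12 bp in A1 and 2.02, 2.14 and 2.13 bp in C, against which Lig4-/-Ku70-/- joints lost 15.8 bp more (exact stratified permutation test, p = 0.005; adjusted 0.01). The genotypes did not overlap.

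How often an end stayed whole differed between members in WT and +Lig4 cells. Over these 12 libraries Igkv5-48 kept its complete coding end in 21.6% to 66.1% of coding joints (median 48.4%), Igkv5-45 in 25.0% to 49.2% (median 39.1%) and Igkv5-43 in 28.4% to 47.1% (median 36.5%). Igkv5-39 did so in 12.2% to 20.3% (median 16.7%) and Igkv5-37 in 0.00% to 27.6% (median 16.4%). Every library of Igkv5-39 thus lay below every library of Igkv5-43, Igkv5-45 and Igkv5-48. The median loss over the pooled WT joints was 3 bp for Igkv5-37 and Igkv5-39, 1 bp for Igkv5-43 and Igkv5-45, and 0 bp for Igkv5-48. In Ku70-/- cells a whole end was rare for all members, from 0.50% of the pooled joints of Igkv5-39 to 1.81% of those of Igkv5-48.

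Microhomology, taken as at least 2 bases that fit both the V and the Jk1 alignment, was rare in WT joints. It was found in 0.37%, 1.70% and 0.51% of family rows in WT A and 1.67%, 1.34% and 1.65% in WT B. In Ku70-/- cells it was found in 24.6%, 39.9% and 11.9% of rows in A1 and in 18.4%, 17.7% and 17.9% in B1. The 3 replicates of A1, with 65 to 160 family rows each, differed among themselves by more than those of B1, with 1509 to 2025. Ku70-/- exceeded WT by 20.5 percentage points (exact stratified permutation test, p = 0.005; adjusted 0.01), and by 16.4 points over coding joints alone. Overlaps of at least 1 base were found in 51.9% ± 17.4 of rows in Ku70-/- A1 and 47.1% ± 1.16 in B1, against 3.75% ± 1.21 in WT A and 7.78% ± 0.60 in WT B.

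In Lig4-/-Ku70-/- cells the share with microhomology was 9.43%, 29.3% and 22.2% in A1_1 and 10.9%, 13.7% and 19.5% in C1. In +Lig4 cells it was 1.66%, 5.37% and 6.54% in A1 and 1.74%, 2.09% and 1.26% in C. The difference was 14.4 points (exact stratified permutation test, p = 0.005; adjusted 0.01), and no library of one genotype reached the other within a lineage.

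Only 1 member in each comparison had 20 rows or more in every library, the depth set for a test of single segments. For Igkv5-45 the difference between Ku70-/- and WT was 20.5 points (exact stratified permutation test, adjusted over all segments, p = 0.00535), where 100.0% of the 46 segments tested were called, 97.8% higher and 2.17% lower. For Igkv5-39 the difference between Lig4-/-Ku70-/- and +Lig4 was 18.6 points (exact stratified permutation test, adjusted p = 0.0217), where 92.3% of 26 segments were called, all 24 of them higher. In Ku70-/- B1, the deepest clone without Ku70, Igkv5-37 had 25.1% ± 0.36, Igkv5-39 18.1% ± 0.98, Igkv5-43 17.5% ± 1.56, Igkv5-45 17.9% ± 2.56 and Igkv5-48 16.6% ± 1.05 (SD, n = 3). Igkv5-37 was the highest member in all 3 of these libraries, on 75 to 91 rows each. In the pooled rows of Lig4-/-Ku70-/- cells it was the lowest instead, with 5.88% of 68 rows. The other members had 17.3% to 26.5% there.

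**Figure D4:**
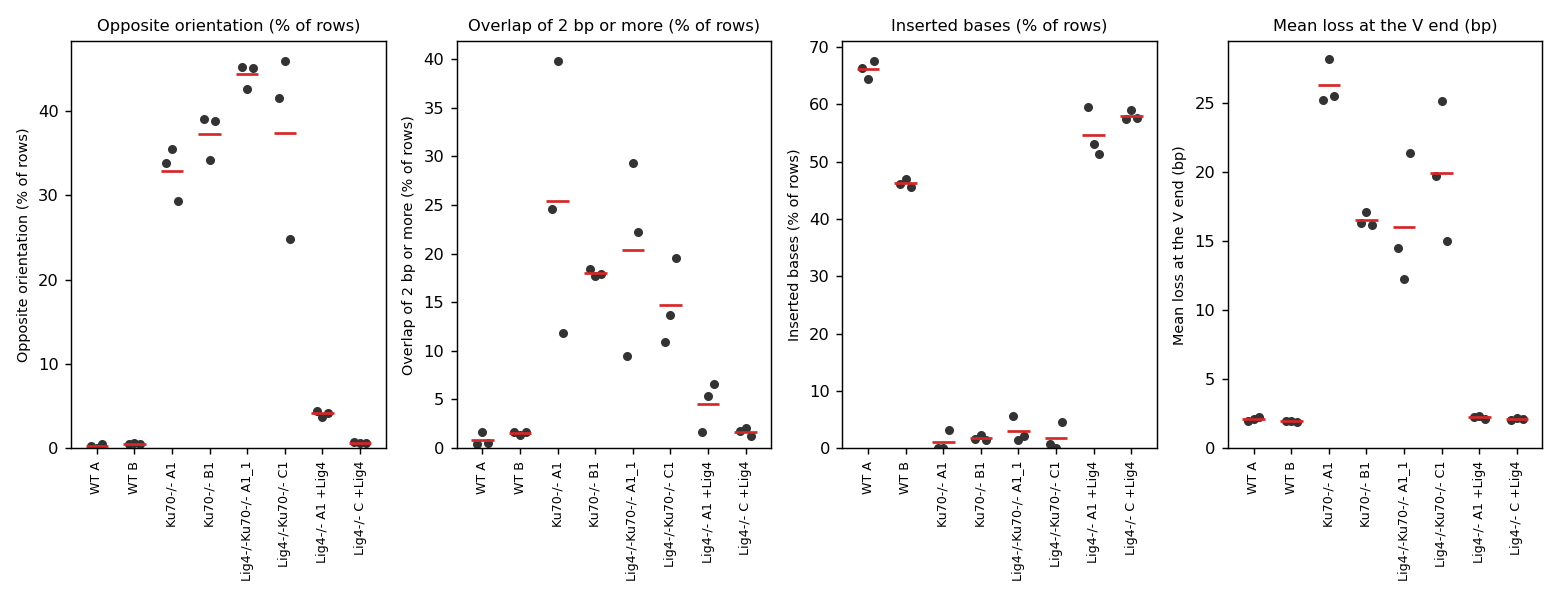
Features of the Igkv5 joints in each library of 8 groups (x axis), from left to right the percent of rows in the opposite orientation, with an overlap of at least 2 bp and with inserted bases, and the mean loss at the V end of coding joints in bp (points, replicates; red lines, means). The first, second and last measures are higher in the 12 libraries without Ku70 than in the 12 WT and +Lig4 libraries, and the third is lower.

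The joints of cells without Ku70 can be read base by base. The 3 shown here are, in turn, the joint found in 34 rows and 6 libraries, a joint of Igkv5-39 found in 19 rows and 6 libraries, and a joint of Igkv5-45 with an overlap of 6 bases, found in 16 rows and 4 libraries. They run from V to Jk1, 20 bases of each, with shared bases in capitals.
Igkv5-43, direct: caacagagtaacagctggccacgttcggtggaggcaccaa
Igkv5-39, direct: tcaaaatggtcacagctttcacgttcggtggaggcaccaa
Igkv5-45, overlap: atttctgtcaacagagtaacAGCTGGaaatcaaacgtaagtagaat
The first lost 3 bp of V and 4 bp of Jk1 and was found in no WT row of Igkv5-43; its like in Igkv5-45 had 22 rows in 5 libraries and 2 WT rows. The second lost 4 bp on each side and was also present in 5 WT rows. The third lost 5 bp of V and 23 bp of Jk1 and shared the 6 bases AGCTGG, which stand at the end of the V sequences of Igkv5-43, Igkv5-45 and Igkv5-48 and within Jk1. It had 7 rows in 3 Ku70-/- libraries and 9 rows in 1 Lig4-/-Ku70-/- library. The same overlap was found in Igkv5-48 with 5 rows in 3 Ku70-/- libraries and in Igkv5-43 with 2 rows in 2. Overlaps of 4 or more bases made 1.23% to 3.60% of the coding joints of each member in Ku70-/- cells, and 0.00% to 0.05% in WT cells.

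Inserted bases were frequent in WT joints and rare without Ku70, a measure added after the lists were seen. They were found in 66.3%, 64.4% and 67.6% of family rows in WT A and 46.1%, 47.0% and 45.6% in WT B, against 0.00%, 0.00% and 3.12% in Ku70-/- A1 and 1.52%, 2.26% and 1.33% in Ku70-/- B1. The difference was -54.8 percentage points (exact stratified permutation test, p = 0.005). In Lig4-/-Ku70-/- cells they made 3.03% ± 2.31 in A1_1 and 1.72% ± 2.41 in C1, and in +Lig4 cells 54.7% ± 4.30 in A1 and 58.0% ± 0.87 in C (SD, n = 3), a difference of -54.0 points (exact p = 0.005). In coding joints the inserts were short, on average 2.47 ± 0.05 bp in WT A and 2.24 ± 0.03 bp in WT B. Where Jk1 had lost nothing, the inserted base next to it was the one that mirrors its last base in 84.2% ± 4.85 of WT A and 84.3% ± 0.28 of WT B joints with an insert. Where Jk1 was trimmed this was so in 16.4% ± 5.68 and 18.8% ± 0.66. Bases that mirror an intact coding end are known as P nucleotides, and are left when the hairpin at a coding end is opened off its centre.

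Family joints lost less of the V end than those of other segments in every WT and +Lig4 library, and no difference from the rest of the locus had an adjusted p under 0.05. With 6 libraries the exact test used here cannot go below 0.0312. More than 5 of its 8 tests would need that value for an adjusted p under 0.05. In each library the members were compared with all other Igkv segments of known direction. For end loss the others were only those whose most frequent loss in WT coding joints was 0 to 5 bp. In WT cells family joints lost 2.03 bp and other segments 2.88 bp, lower in 6 of 6 libraries (exact sign-flip test over 6 libraries, p = 0.0312, the smallest it can give; adjusted over 8 tests, 0.125), and in +Lig4 cells 2.17 and 3.06 bp, again in 6 of 6 (p = 0.0312 by the exact test; adjusted 0.125). This loss is counted from the annotated end, so it also moves with where RefSeq ends each segment. In Ku70-/- cells the family lost 21.4 bp and the others 20.7 (exact p = 0.719), and in Lig4-/-Ku70-/- cells 18.0 and 17.9 (exact p = 1.00). These means join opposite signs, with the family higher in 3 of 6 libraries of each genotype. The differences ran from -1.84 to 5.31 bp in Ku70-/- and from -8.08 to 9.79 bp in Lig4-/-Ku70-/- libraries. Microhomology differed from that of other segments by 4.03 points in Ku70-/- cells (0.27 without replicate 2 of A1), by -2.02 in Lig4-/-Ku70-/- cells (-0.014 without replicate 1 of A1_1), by 0.74 in +Lig4 cells and by -0.06 in WT cells (exact p = 0.375, 0.531, 0.25 and 0.875; adjusted 0.75, 0.85, 0.667 and 1.00). The opposite-orientation share, compared after the lists were seen, was 35.1% in the family and 29.98% in the others in Ku70-/- cells, higher in 5 of 6 libraries (exact p = 0.0938; adjusted over 4 tests, 0.125). It was 40.9% and 33.4% in Lig4-/-Ku70-/- cells, also higher in 5 of 6 (exact p = 0.0625; adjusted 0.125). In +Lig4 cells it was 2.37% and 1.58%, higher in 6 of 6 (exact p = 0.0312; adjusted 0.125), and 0.05 points lower than in the segments between the outermost members. The near copies, whose alignments are all long, are part of these family values.

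The segments whose usage went most closely with that of the family over the 24 libraries with over 1000 rows were Igkv1-110 (Pearson r = 0.69 on log2 usage), Igkv6-15 (0.63) and Igkv12-38 (0.62), out of 91 segments with a mean usage of at least 0.1%. The 24 points share clones and runs, so this is a description. Among the members themselves, pairs correlated between -0.39, for Igkv5-43 and Igkv5-48, and 0.44, for Igkv5-45 and Igkv5-48.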

How the data were processed

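Joining was read by LAM-HTGTS, in which a primer near the Jk1 coding end is extended into the joined sequence. Per the labels, libraries were normalised to 167151, 377068 or 600000 raw reads and sequenced on Miseq or Nextseq (lineage B). Bowtie2 and mm10 are named in the submitters' processing notes; versions are not given in the sources used here. The authors deposited 1 list per library, with 1 row per read and no count or normalised value; many rows repeat a junction, so rows can be copies of 1 joint. No read name was shared between lists. Rows within 100 bp of a RefSeq segment were assigned to it. Overlap, insert and end loss came from the bait and prey positions; losses over 100 bp were left out of end loss. Groups came from the titles.

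Differences between groups were tested with an exact permutation test within lineages (400 relabellings), adjusted by Benjamini-Hochberg over 12 tests, and segment usage with limma 3.58.1 (R 4.3.3) on log2 values, with at least 10 rows summed and lineage as a term, adjusted over all segments, threshold 0.05. The members named are all 5; other segments were named by their correlation with the family. The members, lists and tests were chosen with earlier results of these data known. The tests were tested on simulated data. There limma, at an adjusted p under 0.05, called 7 of 96 unchanged segments for Ku70-/- against WT. For Lig4-/-Ku70-/- against +Lig4 it called 1 of 84. Of segments changed 2-fold it called 15 of 15 and 14 of 15, 13 of the latter in the right direction. Of those changed 4-fold it called 13 of 15 in each comparison. Without a difference, the exact permutation test gave an unadjusted p under 0.05 in 48 of 1000 draws. Alternatives were each replicate left out, distinct junctions, other windows, denominators, overlap limits and added rows, and the replicate number as a block. Same-numbered libraries of lineage A mostly share a run; the deviations of same-numbered libraries in the family measures correlated between -0.90 and 0.82, so the numbers were not taken to pair samples. A genome, strands and proteins were not used here.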

Additional observations from a re-analysis of the deposited data

Results flagged for a closer look

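The difference in family usage between Ku70-/- and WT cells ran in opposite directions in the 2 lineages, which did not pass the threshold after adjustment. Usage was 0.28 percentage points higher in Ku70-/- A1 than in WT A and 0.34 lower in Ku70-/- B1 than in WT B, a difference between the effects of 0.62 points (exact permutation test within lineages, two-sided, p = 0.02; Benjamini-Hochberg adjusted over 12 such tests, 0.24). Lineage B was sequenced on another instrument and at another read number, and the part of this in the difference was not tested. Groups of 3 libraries were not examined for single outlying samples.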

How the results depend on the processing

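The differences in orientation, end loss, overlap and insertion between genotypes kept their direction and an unadjusted p under 0.05 under every alternative run, including each library left out and the rows reaching 220 bp. With the replicate number as a block these 8 differences each had an exact p of 0.0312, the smallest that test can give. Adjusted over the same 12 tests, which leave out insertion, this is 0.0625, so none of the 6 planned ones passed the adjusted threshold with the block. In WT A and Ku70-/- A1 the libraries numbered 2 share a run, as do those numbered 3, so there the number also stands for a run. For Ku70-/- and WT, deviations of same-numbered libraries over both lineages correlated at 0.82 in microhomology and -0.90 in opposite-orientation share. Whether the numbers pair the libraries was thus not settled. The block changed no call of a member, and it brought the segments called for usage, Ku70-/- against WT, from 38 to 21.

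Usage was less stable. Differences are in percentage points and their p-values are unadjusted. Distinct junctions gave -2.66 (exact p = 0.01) for Lig4-/- against WT, 1.24 for Lig4-/-Ku70-/- against Lig4-/-, -1.40 (exact p = 0.035) for +Ku70 against Lig4-/-Ku70-/-, 2.09 for +Lig4 against Lig4-/- and -1.30 (exact p = 0.005) for Lig4-/-Ku70-/- against +Lig4. The 20 bp window gave -0.40 (exact p = 0.03) for Ku70-/- against WT, -2.12 (exact p = 0.04) for Lig4-/- against WT and -0.91 (exact p = 0.005) for Lig4-/-Ku70-/- against +Lig4. The other Lig4-/- A1 set gave -2.49 against WT. Leaving out each library in turn gave -0.12 (WT A replicate 2) to 0.033 (Ku70-/- A1 replicate 1) for Ku70-/- against WT, also above 0 without WT A replicate 1 or 3 or Ku70-/- B1 replicate 1. It gave -2.49 (Lig4-/- A1 replicate 3) to -1.48 (replicate 1 or 2) for Lig4-/- against WT. It gave -4.73 to 2.88 for Lig4-/-Ku70-/- against Lig4-/- and -4.97 to 2.64 for +Lig4 against Lig4-/-, the low ends without Lig4-/- C replicate 1 or 2 and the high ends without replicate 3. It gave -1.63 (+Ku70 A1_1 replicate 3) to -0.74 (+Ku70 C1 replicate 1) for +Ku70 against Lig4-/-Ku70-/-, and -0.59 (A1_1 replicate 3) to -0.23 (C1 replicate 2) for Lig4-/-Ku70-/- against +Lig4. The cause was not tested.

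Of the members' log2 usage, distinct junctions turned Igkv5-48 in Ku70-/- against WT to -0.37, and Igkv5-43 and Igkv5-45 in Lig4-/-Ku70-/- against +Lig4 to -0.19 and -0.25. In that comparison they brought Igkv5-39 to -0.53 and Igkv5-48 to -1.82 (limma adjusted p = 0.0201 and 0.0227), and 1 row added brought Igkv5-48 to -1.62 (limma adjusted p = 0.0496). Single libraries left out moved Igkv5-48 in Ku70-/- against WT between -0.032 and 0.095, Igkv5-37 between -0.88 and -0.17 there and, in Lig4-/-Ku70-/- against +Lig4, between -0.47 and 0.27, and Igkv5-43 in the latter between 0.16 and 0.76. Of all segments, 61 (18 higher, 43 lower) were called for usage in Ku70-/- against WT over distinct junctions and 80 (60 higher, 20 lower) of 162 with no filter, and 95 (61 higher, 34 lower) of 162 in Lig4-/-Ku70-/- against +Lig4. For overlap, distinct junctions left 15 and 11 segments to test, all of them called, and a minimum of 10 rows gave 42 of 47 called in Lig4-/-Ku70-/- against +Lig4.

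For the family against other segments, distinct junctions gave 0.30 and -0.097 points of microhomology in WT and +Lig4 cells and -0.11 and -0.019 bp of end loss in Ku70-/- and Lig4-/-Ku70-/- cells. Against the segments between the outermost members alone, microhomology differed by 0.77 points in WT cells (exact p = 0.0312), end loss by 3.78 bp in Ku70-/- cells (exact p = 0.0312) and -1.12 bp in Lig4-/-Ku70-/- cells, and the opposite-orientation share by -0.051 points in +Lig4 cells. Leaving out each library gave -0.27 to 0.017 points of microhomology in WT, 0.27 to 6.09 in Ku70-/-, -4.44 to -0.014 in Lig4-/-Ku70-/- and 0.44 to 1.08 in +Lig4 cells. End loss ranged from -0.87 to -0.81 bp in WT, -0.29 to 1.14 in Ku70-/-, -1.91 to 1.66 in Lig4-/-Ku70-/- and -0.95 to -0.80 in +Lig4 cells, and the opposite-orientation share from 0.44 to 0.89 points in +Lig4 cells. With 5 libraries left the exact test cannot go below 0.0625. Depth limits the Lig4-/- and +Ku70 values most, since 3 rows made 4.05% or more of each Lig4-/- list.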
